A study of Mus musculus with 18 samples.

Results

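RNA of short-term hematopoietic stem cells (ST-HSCs) was compared with RNA of the whole immunophenotypic stem cell gate (bulk-HSCs) in young mice. The comparison took 6 of the 18 libraries of the series, 3 of young ST-HSCs and 3 of young bulk-HSCs, chosen by their labelled fraction and age. All mice carried the Hoxb5-tri-mCherry reporter, in which mCherry is made from the Hoxb5 locus, on a C57BL/6J background. The young animals were aged 2 to 3 months, and the aged animals, whose libraries gave the same contrast a second time, were aged 23 to 25 months. Bone marrow was enriched for c-Kit and sorted, and within the stem cell gate mCherry+ cells were taken as LT-HSCs (long-term HSCs) and mCherry- cells as ST-HSCs. Bulk-HSCs were the entire gate, so they hold both fractions. Sex, pooling of animals and whether equal replicate numbers share an animal are not given in the sources used here, so the p-values measure the spread between libraries, which may be technical.

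LT-HSCs sustain blood formation through serial transplantation, whereas ST-HSCs give rise to the same lineages for a limited time. Within the HSC gate, expression of Vwf and Slamf1 is a known feature of the more quiescent, platelet-primed cells, while CD34 and Flt3 mark cells nearer to multipotent progenitors. The comparison asks how the RNA of the Hoxb5- cells differs from that of the gate from which they were taken.

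The values were estimated read counts per gene, expressed here as TMM-normalized CPM (each count relative to its scaled library total). The 6 libraries held 17507155 to 21601506 counts each, so that 3 counts corresponded to 0.136 to 0.17 CPM. Genes with a mean of at least 1 CPM over all 18 libraries were tested, which left 12808. Young ST-HSC replicate 3 stood apart, since 8 genes reached at least 100 CPM and at least 20 times the highest of the other 5 libraries there and took 5.87% of its counts. Ociad1 was at 26946 CPM in that library and at no more than 157 CPM in the others, and Pdcd2 was at 10324 CPM against no more than 23.9 CPM. Of 9653 genes whose median count over the libraries was 200 or more, 160 were at 0 in that library, against 10 in each of the other ST-HSC libraries and 29 to 67 in the bulk-HSC libraries. Every aged ST-HSC and bulk-HSC library had 2 to 5 such genes. None of the genes named below as passing the test had such a peak, and values without ST-HSC replicate 3 are given where they change a call.

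Young ST-HSCs and young bulk-HSCs differed in few genes. With an adjusted p under 0.05 in edgeR's quasi-likelihood test (Benjamini-Hochberg over all genes), 21 genes passed, 0.164% of those tested, and 16 were higher in ST-HSCs (0.125%) and 5 lower (0.039%). The lower genes were Vwf, the platelet and endothelial adhesion protein, Cdkn1c, the p57 inhibitor of cyclin-dependent kinases, Exph5, an effector of the vesicle GTPase Rab27, Epor, the erythropoietin receptor, and Apba1, an adaptor of the amyloid precursor protein. Ndrg1, Rnf150, Arrb1 and Vldlr were among the higher genes. Without ST-HSC replicate 3, 19 genes passed (14 higher and 5 lower), 13 of them shared with the 21. The number of calls depended on the tool, with 308 by DESeq2 and 1 by limma-voom. An unadjusted p under 0.05 was given to 1234 genes, 714 higher and 520 lower, and the median log2 fold change over all genes was -0.00077. The libraries of both fractions did not overlap in 1401 genes, 10.9% of those tested, and in all 21 genes that passed.

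**Figure D1:**
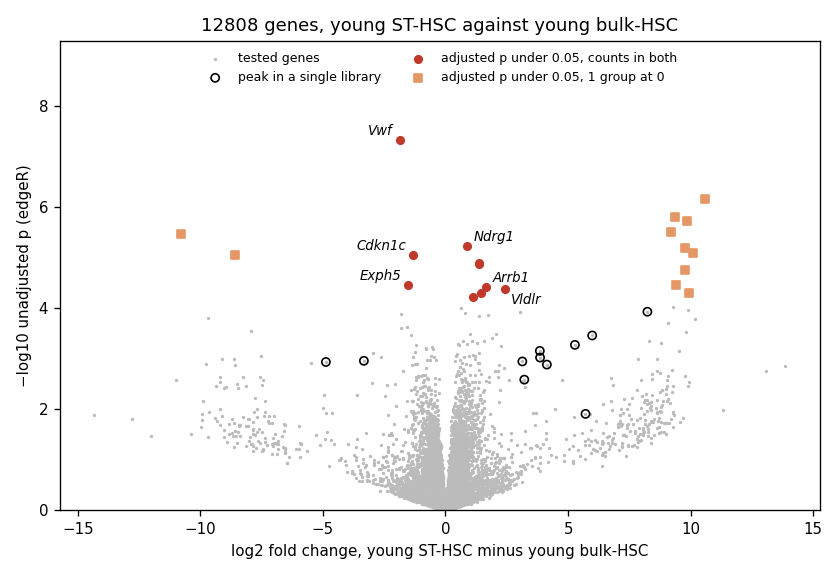
Fold change and evidence for every tested gene. Horizontal axis, log2 fold change of young ST-HSCs minus young bulk-HSCs; vertical axis, -log10 of the unadjusted edgeR p. Grey points are the 12808 tested genes, red circles the 10 genes that passed with counts in both fractions, orange squares the 11 that passed with 1 fraction at 0, and open circles the genes that peaked in 1 library alone; Vwf stands highest, on the side lower in ST-HSCs.

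Vwf had the smallest p of all genes. It lies at chr6:125546774-125686679 on the plus strand (mm10, GENCODE M21) and was at 84.2, 69.9 and 102 CPM in the ST-HSC libraries and at 211, 335 and 384 CPM in the bulk-HSC libraries. The fractions did not overlap, the bulk-HSC mean was 3.63 times the ST-HSC mean, and the log2 fold change was -1.86 ± 0.21 (SE, n = 3 and 3, edgeR adjusted p = 0.000605). Young LT-HSC libraries held 560 to 754 CPM, above every bulk-HSC library. Vwf passed in each of the 6 fits that left out 1 library. A fit of the 6 young libraries alone, which have fewer residual degrees of freedom, gave Vwf an edgeR adjusted p of 0.0999.

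Cdkn1c, at chr7:143458339-143461050 on the minus strand, maintains HSC quiescence. It was at 25.8, 37.2 and 24.5 CPM in ST-HSCs and at 86.4, 58.6 and 75.2 CPM in bulk-HSCs. Every bulk-HSC library was above every ST-HSC library, with a log2 fold change of -1.33 ± 0.22 (SE, edgeR adjusted p = 0.0103). Without ST-HSC replicate 3 the adjusted p was 0.051 in the same test. LT-HSC libraries were at 39.4 to 63.8 CPM, all above the ST-HSC libraries and overlapping the bulk-HSC libraries.

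Exph5, at chr9:53301670-53377514 on the plus strand, was at 11, 16.6 and 9.76 CPM in ST-HSCs and at 44, 37.9 and 26 CPM in bulk-HSCs. No library of one fraction reached the range of the other, and the log2 fold change was -1.53 ± 0.28 (SE, edgeR adjusted p = 0.028). The call was lost without ST-HSC replicate 1, ST-HSC replicate 3 or bulk-HSC replicate 1, with an adjusted p of up to 0.0887.

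Epor, the receptor through which erythropoietin drives red cell formation, lies at chr9:21958897-21963506 on the minus strand. It had 0 counts in all 3 ST-HSC libraries and was at 6.1, 17.4 and 9.44 CPM in the bulk-HSC libraries. A count of 0 allows up to 3 counts per library, so the bulk-HSC mean was at least 73.6-fold higher (edgeR adjusted p = 0.00707). Young LT-HSC libraries held 0.996 to 4.65 CPM, less than every bulk-HSC library. Bounds from counts of 0 cover counting error only and hold where the 0 is not a missed estimate. Apba1, with 0 counts in all 3 ST-HSC libraries and 1.9, 1.86 and 3.32 CPM in bulk-HSCs, was at least 15.8-fold higher in bulk-HSCs (edgeR adjusted p = 0.0103). The part of missed detection in the zeros of Epor and Apba1 was not tested, beside the 160 high-count genes at 0 in ST-HSC replicate 3 and the 10 in each of the other ST-HSC libraries. Summed markers of other cells were also lower in ST-HSCs. The erythroid cell markers, Epor included, summed to 29.9 to 43.4 CPM in ST-HSC libraries against 50.4 to 187 CPM in bulk-HSC libraries. Car1, a carbonic anhydrase of early erythroid cells, was at 14.5, 29.2 and 19 CPM against 30.2, 129 and 37.8 CPM without passing (edgeR adjusted p = 0.823). Of the 6 erythroid cell markers tested, 4 were lower and 1 higher in ST-HSCs, and Hba-a2 was at 0 in all 6 libraries. Of 13 macrophage markers tested, 12 were lower and 1 higher, with sums of 66.2 to 100.1 against 121 to 164 CPM. The complement gene C1qc was at 0 in every ST-HSC library and at 10.1, 23.3 and 4.39 CPM in bulk-HSCs, without passing (edgeR adjusted p = 0.216). Without Epor the erythroid cell sum was 29.9 to 43.4 against 44.3 to 169.9 CPM. Car1, at 30.2 to 129 CPM in bulk-HSCs, was still part of it, and no sum was taken without Car1. These sums gave an exact permutation p of 0.1, the smallest that 3 against 3 libraries allow, and the part of such cells in the Epor result was not tested. In aged mice, 11 of the 13 macrophage markers were higher in ST-HSCs (median log2 fold change 0.75). Of the 6 erythroid cell markers, 3 were higher there, with a median of 1.06 against -1.47 in young mice. The other marker sums overlapped between ST-HSCs and bulk-HSCs, at 13.8 to 27.9 against 10.6 to 29.2 CPM for B cells, 2.95 to 23.1 against 8.17 to 26.1 CPM for T and NK cells, 0.189 to 9.65 against 1.34 to 8.17 CPM for neutrophils, 2.99 to 12.3 against 0 to 9.23 CPM for mast cells and basophils, and 33.7 to 47.4 against 27.4 to 40.4 CPM for stroma and endothelium. In bulk RNA, fewer cells of a type and less RNA per cell cannot be told apart.

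Promoter sequences of Epor and Exph5 are shown because both genes were lower in ST-HSCs and both windows hold the letters searched for factors of blood stem cells. Each is the 250 bases before the gene's RefSeq start (GRCm38.p6). Capitals mark the GATA factor letters (AGATAA) and the RUNX letters (TGTGGT) on either strand. The Epor window is chr9:21963577-21963826 on the minus strand and the Exph5 window chr9:53301420-53301669 on the plus strand.
Epor: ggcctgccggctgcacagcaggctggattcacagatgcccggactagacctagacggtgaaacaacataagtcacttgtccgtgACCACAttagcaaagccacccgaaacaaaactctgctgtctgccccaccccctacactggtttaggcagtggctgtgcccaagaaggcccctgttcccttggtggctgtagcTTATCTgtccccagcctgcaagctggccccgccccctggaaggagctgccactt
Exph5: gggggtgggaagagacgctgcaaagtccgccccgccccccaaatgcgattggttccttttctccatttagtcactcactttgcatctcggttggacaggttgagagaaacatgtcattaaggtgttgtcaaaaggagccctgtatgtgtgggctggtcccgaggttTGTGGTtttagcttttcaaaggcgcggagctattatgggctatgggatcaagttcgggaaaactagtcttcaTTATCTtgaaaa
Of the 21 genes, 13 had an entry. AGATAA was found in 2 of them and in 9.99% of all 32851 promoter windows, TGTGGT in 3 of them and in 14% of all, and the ETS letters CCGGAAG in 1 of them and in 6.91% of all. A match of letters is a description and not a binding site.

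Of the 16 genes higher in ST-HSCs, 7 had counts in both fractions. Ndrg1, a gene induced by hypoxia and stress, was at 194, 194 and 199 CPM in ST-HSCs and at 85.6, 116 and 116 CPM in bulk-HSCs. The ST-HSC libraries lay within a narrow band above the others, with a log2 fold change of 0.89 ± 0.14 (SE, edgeR adjusted p = 0.0101). It passed in all 6 fits that left out 1 library. Rnf150, which encodes a RING finger protein, was at 42.5, 39.1 and 40.5 CPM in ST-HSCs and at 12.7, 16.5 and 18.1 CPM in bulk-HSCs. The groups were separate at a log2 fold change of 1.37 ± 0.23 (SE, edgeR adjusted p = 0.0128), and this gene too passed in every such fit.

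Arrb1, which encodes β-arrestin 1, a scaffold that ends signaling by G protein-coupled receptors, was at 311, 358 and 195 CPM in ST-HSCs and at 101, 84.7 and 85.3 CPM in bulk-HSCs. Its log2 fold change was 1.67 ± 0.31 (SE, edgeR adjusted p = 0.0282), and 5 of the 6 fits that left out a library lost the call, with an adjusted p of up to 0.086. Vldlr, the very low density lipoprotein receptor, was at 53.3, 24.4 and 107 CPM in ST-HSCs and at 12, 17 and 5.56 CPM in bulk-HSCs. The highest bulk-HSC library was below the lowest ST-HSC library, and the log2 fold change was 2.42 ± 0.45 (SE, edgeR adjusted p = 0.0301). The call was lost without ST-HSC replicate 3 (adjusted p = 0.0972), bulk-HSC replicate 1 or bulk-HSC replicate 3. Phf23, a PHD finger protein, was at 37.1, 56.7 and 68.6 CPM against 25.1, 19.4 and 18.7 CPM (log2 fold change 1.36, edgeR adjusted p = 0.0128, and 0.0628 without ST-HSC replicate 3). Zfp202, a zinc finger gene, was at 24.7, 27.4 and 31 CPM against 8.23, 10.2 and 12 CPM (1.45 on the log2 scale, edgeR adjusted p = 0.0322), and Cul2, the cullin of the VHL ubiquitin ligase, was at 45.2, 39.7 and 55.8 CPM against 23.1, 24.5 and 16.8 CPM (1.13, edgeR adjusted p = 0.0368). Zfp202 and Cul2 lost the call in 4 of the 6 fits each, ST-HSC replicate 3 among them (edgeR adjusted p = 0.0857 and 0.103 without it). For all 7 genes the young LT-HSC mean lay above the bulk-HSC mean.

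**Figure D2:**
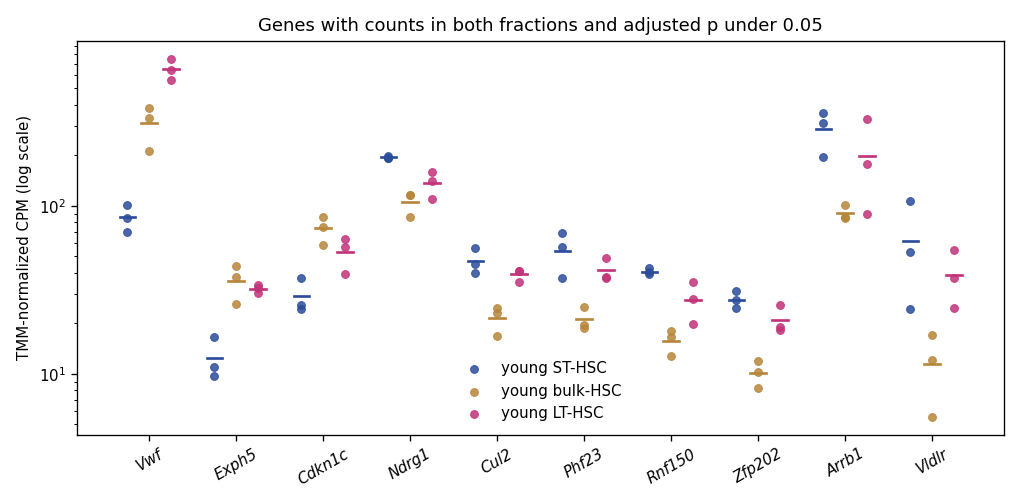
Level per library of the 10 genes that passed with counts in both fractions. Vertical axis, TMM-normalized CPM on a log scale; points, libraries of young ST-HSCs (blue), bulk-HSCs (brown) and LT-HSCs (pink), with bars at the means of 3; Vwf was lowest in ST-HSCs and highest in LT-HSCs, and the bulk-HSC points of the 7 genes at the right lie below both other fractions' means.

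The other 9 genes that were higher in ST-HSCs had 0 counts in all 3 bulk-HSC libraries. They were Ttll1, a tubulin polyglutamylase subunit, Tc2n, 2210408F21Rik, Il1rapl2, Brdt, a testis bromodomain protein, Gpx7, a peroxidase of the endoplasmic reticulum, 1700020L24Rik, Hpse, the heparan sulfate-cleaving heparanase, and Slc6a17, an amino acid transporter of vesicles. Apart from Tc2n, a leading member of the HSC aging list, they had means under 10 CPM, fell outside the rule for named genes and were picked out after their values were seen. Ttll1 was at 10.9, 6.98 and 11.1 CPM in ST-HSCs, with a mean 65.3 times the floor of 3 counts in bulk-HSCs (edgeR adjusted p = 0.00447). Tc2n was at 3.26, 0.952 and 8.12 CPM, with a mean 27.8 times that floor (edgeR adjusted p = 0.00594). Gpx7 was at 4.96, 4.49 and 11.2 CPM, Brdt at 6.66, 5.85 and 3.63 CPM, and Hpse at 4.2, 0.317 and 8.12 CPM. Hpse and Slc6a17 lost the call in 4 of the 6 fits that left out 1 library, ST-HSC replicate 3 among them (edgeR adjusted p = 0.051 and 0.0838). For the 7 genes other than Ttll1 and Tc2n the bound ran from 24.5-fold for Il1rapl2 to 46.4-fold for Gpx7. Among all tested genes, 33 were at 0 in every bulk-HSC library while every ST-HSC library had counts, and 14 were so in the other direction. The 9 genes had counts in every young LT-HSC library and in every aged bulk-HSC library. Ttll1, for example, had a mean of 11.9 CPM in young LT-HSCs and 7.59 CPM in aged bulk-HSCs. Bulk-HSCs hold both fractions, and the bounds hold only where the 0 is not a missed estimate. The bulk-HSC libraries detected 11627 to 11958 of the tested genes, against 11184 to 12340 in ST-HSCs and 12532 to 12681 in aged bulk-HSCs, and the part of missed detection in these zeros was not tested.

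**Figure D3:**
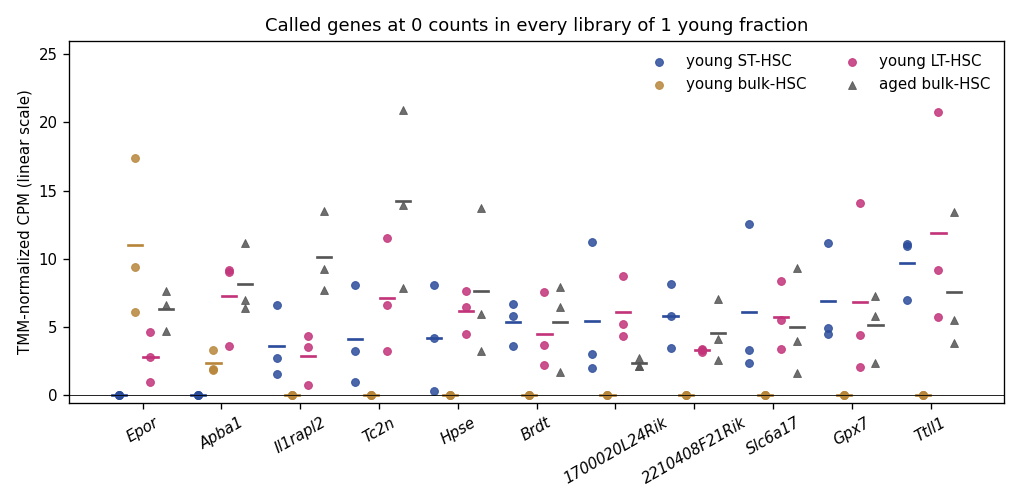
Level per library of the 11 genes that passed with 0 counts throughout 1 young fraction. Vertical axis, TMM-normalized CPM on a linear scale; points, libraries of young ST-HSCs (blue), bulk-HSCs (brown), LT-HSCs (pink) and aged bulk-HSCs (triangles), with bars at the means of 3; the young bulk-HSC points of 9 genes lie at 0 while the LT-HSC and aged bulk-HSC points lie above it.

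Because bulk-HSCs hold LT-HSCs and ST-HSCs, the place of the bulk-HSC mean between them was also read. The bulk-HSC mean lay between the ST-HSC and LT-HSC means for 2 of the 21 genes, Vwf and Apba1, and for 33.7% of all tested genes. It lay below both means for the 16 genes higher in ST-HSCs, and above both for Cdkn1c, Exph5 and Epor. The bulk-HSC libraries were part of the contrast that chose the 21 genes, so nothing is read from this share. Whether these differences belong to ST-HSCs or to the young bulk-HSC libraries was not tested.

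Averaged over libraries, ST-HSC and bulk-HSC libraries lay about as far apart across all genes as bulk-HSC libraries lay from each other. With 1 minus Spearman's rho over the 12808 genes as distance, ST-HSC and bulk-HSC libraries lay 0.078 apart on average, ST-HSC libraries 0.0716 from each other and bulk-HSC libraries 0.0794. The difference between and within fractions was 0.00246, with a two-sided exact permutation p of 0.1, the smallest that 3 against 3 libraries allow. ST-HSC replicate 3 raised these averages. It lay 0.0852 and 0.0824 from ST-HSC replicates 1 and 2, and 0.09 to 0.101 from the bulk-HSC libraries. Replicates 1 and 2 lay 0.0473 from each other and 0.061 to 0.0738 from the bulk-HSC libraries. The distances were not tested without replicate 3.

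The sorting genes were read in the same libraries. Hoxb5, whose reporter defines the ST-HSC gate, was at 3.83, 2.4 and 0 CPM in ST-HSCs and at 4.59, 1.73 and 5.6 CPM in bulk-HSCs. In LT-HSCs it was at 40.3, 8.77 and 8.2 CPM, so its mean of 19.1 CPM rests largely on 1 library. The ST-HSC and bulk-HSC ranges overlapped (exact permutation p = 0.3, edgeR adjusted p = 0.924). Kit, the receptor used for enrichment, ranged over 1426 to 1496 CPM in ST-HSC libraries and over 1351 to 1414 CPM in bulk-HSC libraries. Slamf1, which encodes CD150, was at 13.9, 27.3 and 24.5 CPM in ST-HSCs and at 34.5, 30.5 and 30.6 CPM in bulk-HSCs. Cd34 was at 240, 199 and 285 CPM against 173, 136 and 150 CPM, and Flt3 was at 89.3, 50 and 52.8 CPM against 41.7, 26.4 and 25.7 CPM. The fractions did not overlap for Slamf1, Cd34, Flt3 and Kit, each with an exact permutation p of 0.1, but none passed the edgeR test (adjusted p = 0.431, 0.251, 0.51 and 0.85). Ly6a, which encodes Sca-1, overlapped (exact permutation p = 0.5). Cd48 was under the filter, at 0.397 to 2.27 CPM in ST-HSC libraries and at most 1.27 CPM in bulk-HSC libraries.

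Other genes with small p did not pass. Osbpl8, an oxysterol-binding protein, was at 394, 375 and 474 CPM in ST-HSCs and at 271, 268 and 257 CPM in bulk-HSCs (log2 fold change 0.64 ± 0.13, SE, edgeR adjusted p = 0.0561). Amotl2, an angiomotin-like regulator of cell junctions, was at 3.12, 6.62 and 2.72 CPM against 22, 6.72 and 15.5 CPM (-1.82 ± 0.37, SE, edgeR adjusted p = 0.0597). Its highest ST-HSC library lay just under its lowest bulk-HSC library. Fam76a was at 7.56, 17.3 and 5.05 CPM against 38, 24.6 and 27.5 CPM (edgeR adjusted p = 0.0873), and Det1, a component of a ubiquitin ligase, was at 18.4, 11.6 and 10.2 CPM against 51.3, 28.4 and 27.8 CPM (edgeR adjusted p = 0.106). Nfkbia, the inhibitor of NF-κB, was at 105, 73.8 and 64.7 CPM against 109, 131 and 137 CPM (edgeR adjusted p = 0.164). Plk2, a stress-induced kinase, was at 15.1, 10.2 and 8.8 CPM against 27, 45.2 and 13.6 CPM (edgeR adjusted p = 0.162), with overlapping libraries.

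Gene lists written for HSC biology mostly held few or no genes that passed. Of 50 HSC identity genes, 16 were higher and 34 lower in ST-HSCs, and the median of their log2 fold changes was -0.09. Vldlr rose and Cdkn1c fell, and Neo1, a netrin receptor, was at 6.28, 4.3 and 12.8 CPM against 27, 32.9 and 22.8 CPM without passing (edgeR adjusted p = 0.0896, and 0.0247 without ST-HSC replicate 3). Of 30 megakaryocyte and platelet genes, 11 were higher and 19 lower (median -0.17), and Vwf alone passed. Plek, which encodes the platelet protein pleckstrin, was at 102, 134 and 147 CPM in ST-HSCs and at 55.5, 91.9 and 88.7 CPM in bulk-HSCs (edgeR adjusted p = 0.24). The summed platelet list was 3065 to 3443 CPM against 3446 to 4102 CPM (exact permutation p = 0.1), and without Vwf the sums overlapped at 2981 to 3357 against 3235 to 3718 CPM (exact permutation p = 0.6). Of 22 CDK inhibitor and quiescence genes, 12 were higher and 10 lower (median 0.05), and Cdkn1c alone passed.

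Lineage genes gave the following counts. Of 19 granulocyte and monocyte genes, 11 were higher and 8 lower in ST-HSCs (median 0.32), and none passed. The myeloid repressor Gfi1 was at 21.8, 24.4 and 39.3 CPM against 4.37, 11.2 and 4.86 CPM, and Csf3r, the G-CSF receptor, was at 151, 110 and 128 CPM against 92.2, 79.1 and 47.6 CPM (edgeR adjusted p = 0.106 and 0.251). The libraries of both genes did not overlap, and the summed list was 574 to 682 CPM against 385 to 542 CPM (exact permutation p = 0.1). Of 18 multipotent progenitor and lymphoid genes, 10 were higher and 8 lower (median 0.27), and none passed. Cd27, a receptor of early lymphoid progenitors, was at 152, 91.7 and 167 CPM against 82.8, 81.8 and 45.9 CPM (edgeR adjusted p = 0.162). Notch1, the receptor that drives T cell commitment, was at 164, 137 and 119 CPM against 230, 172 and 151 CPM, with overlapping libraries (edgeR adjusted p = 0.467). Of 15 erythroid genes, 5 were higher and 9 lower (median -0.66), and Epor alone passed.

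Of 41 HSC aging genes, 16 were higher and 25 lower (median -0.08), and Tc2n rose and Vwf fell. An unadjusted edgeR p under 0.05 was given to 11 lower and 2 higher members, against 520 lower and 714 higher of all 12808 genes. The members were not tested as a set. In aged mice, 8 of the 41 were higher in ST-HSCs (median -0.35). The list sum ranged over 1820 to 1975 CPM for ST-HSCs against 2073 to 2289 CPM for bulk-HSCs (exact permutation p = 0.1). Without Tc2n and Vwf the sums overlapped, at 1710 to 1904 against 1863 to 1923 CPM (exact permutation p = 0.2). Jam3, an adhesion molecule of HSCs on the niche list, was at 15.1, 13.1 and 21.1 CPM against 38.3, 33.8 and 40.3 CPM without passing (edgeR adjusted p = 0.131). None of the 87 cell cycle and E2F target genes passed (32 higher and 55 lower, median -0.14), nor any of the 39 immediate early genes (15 and 24, median -0.16), the 42 interferon genes (16 and 26, median -0.1), the 38 p53 targets (24 and 14, median 0.08) or the 28 niche adhesion genes (13 and 15, median -0.02). The median of all tested genes was -0.00077 on the same scale. Without ST-HSC replicate 3 the medians of the interferon and niche lists took the other sign (0.03 and 0.04), and medians moved to -0.23 for HSC aging, -0.24 for immediate early, 0.03 for p53, 0.03 for CDK inhibitor, -0.1 for platelet and 0.17 for multipotent progenitor genes. In the same fit, Neo1 passed as a lower gene of the HSC aging and HSC identity lists, and Vldlr and Cdkn1c did not pass. Placing genes at 0 in 1 fraction at their bound left each list's median as it was.

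**Figure D4:**
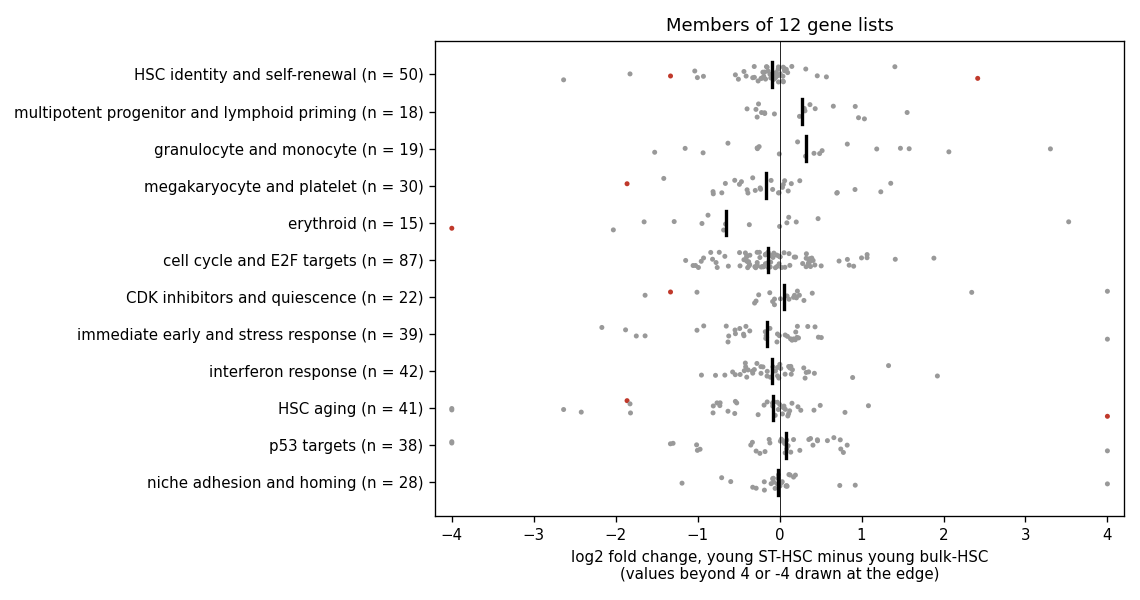
Log2 fold change of each tested member of 12 gene lists, young ST-HSCs minus young bulk-HSCs, with values beyond 4 drawn at the edge. Each point is a gene, red where the edgeR adjusted p was under 0.05, and the black bar is the list's median; medians run from -0.66 for the erythroid genes to 0.32 for the granulocyte and monocyte genes, with at most 2 red points in a list.

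The same contrast was read between the aged ST-HSC and aged bulk-HSC libraries, which enter the young fold changes in no group but share the filter and the estimate of the spread with them. No gene passed there (0 of 12808, 0%), with 346 genes at an unadjusted p under 0.05 in edgeR, while DESeq2 called 41 and limma-voom 24. The aged fractions did not overlap in 14.5% of genes. All 5 genes lower in young ST-HSCs had the same sign in aged mice, and 8 of the 16 higher genes did. The same share over all tested genes is not given here. Epor counted among the 5 at a log2 fold change of -0.26 ± 0.94 (SE), although it passed the interaction test (edgeR adjusted p = 0.0423). Of the genes passing in young mice, 8 did not overlap in aged mice, 5 of them in the same direction. Arrb1, Zfp202 and Cul2, higher in young ST-HSCs, were lower without overlap in aged ST-HSCs (-0.12, -0.59 and -0.32). Vwf was at 251 to 349 CPM in aged ST-HSCs and at 650.1 to 660 CPM in aged bulk-HSCs, a log2 fold change of -1.11 ± 0.2 (SE, edgeR adjusted p = 0.271). Cdkn1c was at 29.6 to 32.5 CPM against 59.1 to 61.8 CPM, a log2 fold change of -0.95 ± 0.21 (SE, edgeR adjusted p = 0.407). Neither gene's libraries overlapped in aged mice, and the interaction of fraction with age gave both an edgeR adjusted p above the threshold (0.747 for Vwf and 1 for Cdkn1c). Arrb1 was at 271 to 286 CPM in aged ST-HSCs and at 286 to 320 CPM in aged bulk-HSCs (edgeR adjusted p for the interaction = 0.29). Of the 12808 genes, 8 passed the interaction test (0.0625%), which are given in the closing part.

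**Figure D5:**
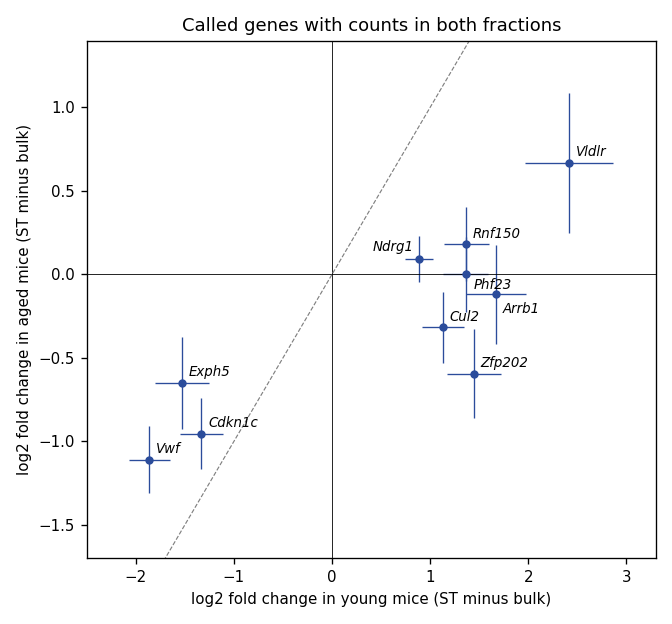
Fold change in young against aged mice for the 10 genes that passed with counts in both fractions. Horizontal and vertical axes, log2 fold change of ST-HSCs minus bulk-HSCs in young and in aged mice; error bars, SE; dashed line, equal change; Vwf, Cdkn1c and Exph5 lie below 0 at both ages, while the genes higher in young ST-HSCs spread around 0 in aged mice.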

How the data were processed

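Total RNA of sorted LT-HSCs, ST-HSCs and bulk-HSCs was made into ribosomal RNA-depleted libraries and sequenced as paired ends. Reads were mapped by the authors to mm10 using HISAT2, and the deposited values are their estimated counts per gene from StringTie 1.3.4d (the submitters' notes also name SAMtools 1.7), as whole numbers with no normalization, for 24421 gene symbols. Whether counting used strand is not given in the sources used here, and 7 of the 21 genes that passed overlap a gene on the opposite strand. A gene was tested if its TMM-scaled CPM averaged 1 or more over the 18 libraries, and the test was run with edgeR 4.0.16 in R 4.3.3, with 6 group means and 12 residual degrees of freedom, and calls used an adjusted p under 0.05. Checks on simulated counts preceded the fits. Alternatives used DESeq2 1.42.0 and limma 3.58.1. Named genes were the called genes of at least 10 CPM, the 8 with the smallest p in each direction, the 3 leading members of each list, the sorting genes, single-library peaks and genes at 0 in 1 fraction with at least 10 CPM in the other; a gene that this rule names is not reported here. Members, gene lists and tests were chosen with earlier results of these data known. None of the 28 mitochondrially encoded symbols was matched. Promoter sequences came from RefSeq (GRCm38.p6) and positions from GENCODE M21.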

Additional observations from a re-analysis of the deposited data

Results flagged for a closer look

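For 8 genes the difference between ST-HSCs and bulk-HSCs differed between young and aged mice by the interaction term of the edgeR model. Atp8a1, a phospholipid flippase, was at 209, 289 and 247 CPM in young ST-HSCs and at 149, 146 and 136 CPM in young bulk-HSCs, and at 212 to 295 CPM against 358 to 388 CPM in aged mice. Its log2 difference of differences was 1.36 (edgeR adjusted p = 0.0423), and the libraries did not overlap at either age, in opposite directions. The other 7 genes had 0 counts in every library of 1 young fraction, so their fitted values depend on the prior count and are no bound. High-count genes at 0 numbered 29 to 67 in young bulk-HSC and 10 to 160 in young ST-HSC libraries. They numbered 2 to 5 in the aged libraries of both fractions. The part of missed detection in the results of the 7 genes was not tested. The fitted values on the log2 scale were 10.3 for Ttll1, 9.81 for Tc2n, 9.38 for 2210408F21Rik, 10.7 for Gpx7, 8.96 for Il1rapl2, 9.78 for Brdt and -10.5 for Epor, with edgeR adjusted p-values of 0.0365 to 0.0468.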

How the results depend on the processing

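Of the 21 calls, library size alone kept 20, RLE factors and library sizes without the genes with a single-library peak (chosen after seeing the data) 21, filterByExpr 19 and robust estimation 18. At least 10 counts in every library gave 8 calls, DESeq2 308 (including all 21), and limma-voom 1 (Vwf). The 6 young libraries alone gave 1 call, Eno1b, and the 9 young libraries 2, Eno1b and Vwf; in the fit of all libraries Eno1b had means of 0.161 and 31.1 CPM and an edgeR adjusted p of 0.162. Leaving out 1 library gave 19 to 46 calls: 43 without ST-HSC replicate 1, 46 without ST-HSC replicate 2, 19 without ST-HSC replicate 3 (13 shared), 38, 46 and 34 without bulk-HSC replicates 1, 2 and 3; 12 of the 21 genes passed in all of these fits. For the aged contrast DESeq2 gave 41 calls and limma-voom 24, and leaving out 1 library 0 to 1, with Jun called without aged bulk-HSC replicate 1. For the interaction DESeq2 gave 128 calls, limma-voom 0, robust estimation 3 (Tc2n, Ttll1 and Atp8a1) and leaving out 1 library 0 to 24 (0 without ST-HSC replicate 1 or 3, 18 and 24 without bulk-HSC replicates 1 and 2, and 2, Plcxd2 and Gnat2, without bulk-HSC replicate 3). The replicate block gave 2 young calls (Vwf and Ttll1), 0 aged and 0 interaction calls. Deviations from the group means correlated at -0.032, 0.0134 and 0.0232 between young ST-HSC and bulk-HSC libraries with equal numbers. Noise of each library enters these deviations, so they cannot tell whether equal numbers share an animal. The difference in distance was 0.0334 over the 1000 most variable genes (exact permutation p = 0.1) and 0.00269 over the 10137 genes with at least 10 counts (p = 0.3). The limma-voom fits of the aged and interaction contrasts and the robust interaction fit were also chosen after seeing the data. No direction of a called gene reversed. The cause of these changes was not tested.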
